A study of Mus musculus with 12 samples.

Results

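The response to RSL of 1 clone of inducible fibroblasts was followed across all measured genes. It was read from 6 of the 12 arrays of the series, 3 of cells treated with RSL-1 (RSL below) and 3 of cells treated with DMSO, the solvent. The comparison covered the 16475 probe sets, each built for 1 gene, that remained of 16539 after 64 hybridization controls were left out, and every difference is RSL minus DMSO. The cells were NIH 3T3-RheoSwitch-Ier2 cells, clone #11, mouse embryonic fibroblasts that carry the plasmids pNEBR-R1 and pNEBR-Ier2-hygro and received 200 nM RSL or DMSO for 24 h. The 6 other arrays, used only where stated, were of parental NIH 3T3 cells without these plasmids, given the same agents at the same dose and time, again 3 per agent. No animal, tissue or other genotype was involved, and the growth medium in the labels, which contains G418 and hygromycin, is worded alike for every array. The methods name both drugs for selecting transfected cells, so whether parental cells received them cannot be told from that wording.

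NIH 3T3 is an immortal fibroblast line that stops dividing when crowded. IER2 is a small nuclear protein whose gene belongs to the immediate-early genes, which need no new protein synthesis to switch on when serum or growth factors reach a resting cell. In the RheoSwitch system a receptor and an activator, both made from pNEBR-R1, come together on the responsive promoter when the ligand binds, and the cloned Ier2 is then transcribed. Immediate-early transcription runs largely through the RAS and ERK kinases and through serum response factor, and the phosphatases that switch ERK off are themselves among its targets.

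These arrays limit what can be read from the response. All inducible arrays came from 1 clone, and parental cells lack the receptor and activator, so effects of the induced IER2 and of the ligand-bound receptor and activator cannot be told apart. The RNA is from whole cultures, so fewer cells of a type and less RNA per cell cannot be told apart either. Biological replicates are named in the labels, but whether each was a culture of its own is not. The p-values set a difference only against the spread between these arrays. The inducible cells carried fibroblast markers: of 12 fibroblast markers, 10 lay among the brightest 25% of all probe sets. So did 1 of 12 macrophage markers (Cd14), 0 of 12 epithelial and 0 of 10 endothelial markers. Among the dimmest 25% lay 0 fibroblast, 6 macrophage, 7 epithelial and 5 endothelial markers. None of these 46 markers passed the test below.

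Differences between RSL and DMSO were small and numerous. With limma and a Benjamini-Hochberg adjustment over all probe sets, 418 were called at an adjusted p under 0.05. Of these, 218 were higher (1.32% of all tested) and 200 lower (1.21%) in the arrays labelled RSL, and in all 418 the values of the 2 groups did not overlap. Such separation was common without a call, since every RSL array lay above every DMSO array for 9.34% of probe sets and below for 8.75%. Single arrays weighed on these counts. There were 204 and 213 calls without DMSO replicates 1 and 2 and 227 without RSL replicate 1. The increases alone numbered 125, 122, 137 and 121 without DMSO replicates 1, 2 and 3 and RSL replicate 1, and the falls 79, 91, 106, 128 and 130 without DMSO replicates 1 and 2 and RSL replicates 1, 2 and 3. The description below therefore leads with stable calls, which passed in the fit of all arrays and in each of the 6 fits that leave out 1 inducible array. There were 160 of these, 96 higher (0.583% of all tested) and 64 lower (0.388%), and 153 have a gene symbol. Their median size was 0.25 on the log2 scale, against 0.032 over all probe sets, and 43 of the 160 reached 0.3 and 9 reached 0.5. Only Egr1 among them passed 1, a change of more than 2-fold. Of the 160, 146 were brighter than the median probe set and 2 were among the dimmest 25%, as the plot of change against level shows.

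**Figure D1:**
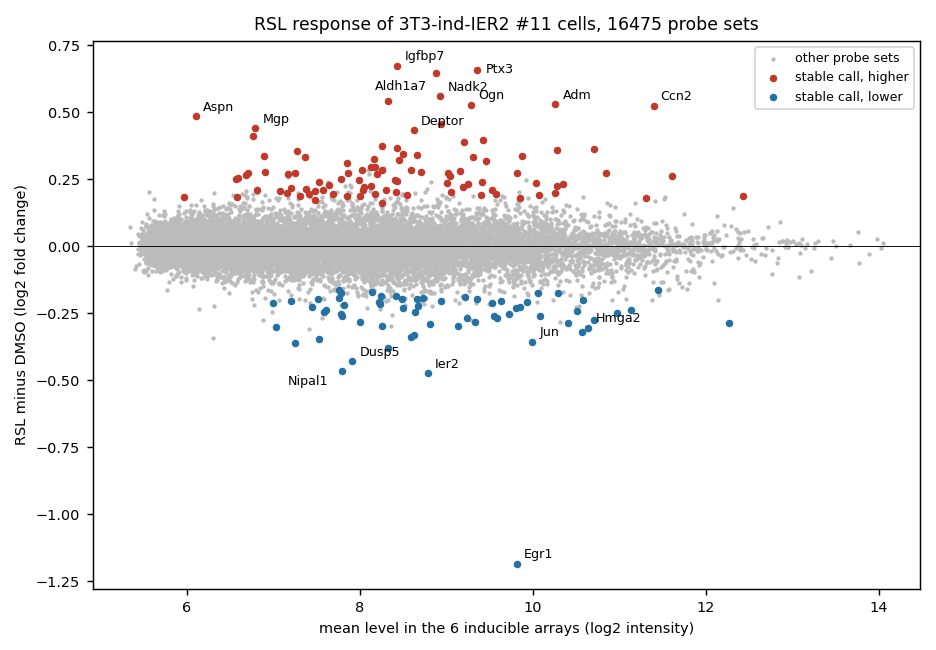
Each point is 1 of 16475 probe sets, with its mean log2 intensity over the 6 inducible arrays on the horizontal axis and the log2 fold change, RSL minus DMSO, on the vertical axis. Red points are the 96 stable calls that were higher and blue points the 64 that were lower, and Egr1, at -1.18, is the single point below -0.5.

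The largest change was a fall of Egr1, the growth factor-inducible zinc finger transcription factor. Its log2 values were 10.59, 10.53 and 10.09 in the DMSO arrays and 8.98, 9.12 and 9.57 in the arrays labelled RSL. The groups did not overlap, as in every call, and DMSO replicate 3 and RSL replicate 3 lay nearest each other. This is a change of -1.18 with a standard error of 0.14 (adjusted p = 0.000198), and it stayed between -1.36 and -1.06 when any 1 inducible array was left out. The probe set for Ier2 itself also fell, at 9.07, 9.04 and 8.96 in the DMSO arrays and 8.50, 8.48 and 8.66 in the arrays labelled RSL, a change of -0.47 (standard error 0.05, adjusted p = 4.64e-05). The labels and methods give the transgene as cloned mouse Ier2 and do not say whether the array's probes lie in the cloned stretch. The probe set thus neither shows nor excludes transcription from the plasmid, and the direction of every difference rests on the labels of the arrays.

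Other immediate-early genes moved the same way as Egr1, with exceptions. Of 29 immediate-early transcription regulators measured, Egr1 and Ier2 included, 9 were called lower and 2 higher, 4 and 1 of them stably. Over all probe sets 1.21% were called lower and 1.32% higher, 0.388% and 0.583% stably. The median of the 29 was -0.10, against 0.003 over all probe sets. Jun, the central AP-1 subunit, read 10.18, 10.20 and 10.15 in the DMSO arrays and 9.82, 9.86 and 9.78 in the arrays labelled RSL (-0.36, standard error 0.04, adjusted p = 4.05e-05). Fosl1, which encodes the AP-1 subunit FRA-1, read 10.90, 10.87 and 10.78 in the DMSO arrays and 10.55, 10.54 and 10.64 in the arrays labelled RSL (-0.27, standard error 0.04, adjusted p = 0.000717). For both AP-1 genes all arrays labelled RSL lay below all DMSO arrays, as in every probe set called lower and in 8.75% of all. The gap was smaller in Fosl1.

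A further 5 falls in the list were called but not stable, meaning that they did not pass in every fit that leaves out 1 array. They were Egr2 (log2 fold change -0.34), Ier5 (-0.21), Zfp36 (-0.21), Junb (-0.20) and Klf6 (-0.18), with adjusted p between 0.00969 and 0.0183 in the full fit and between 0.067 and 0.0965 in the least favourable one. Zfp36 encodes tristetraprolin, which speeds the decay of cytokine mRNAs. Fos, the partner of JUN best known from serum responses, was at -0.17 and was not called (adjusted p = 0.249), and Fosb (-0.04), Egr3 (-0.03) and Myc (0.04) were not either. The exceptions in the other direction were Ier5l, a relative of Ier2, with 7.97, 8.004 and 8.07 in the DMSO arrays and 8.28, 8.20 and 8.24 in the arrays labelled RSL (0.22, adjusted p = 0.00697), and the orphan nuclear receptor gene Nr4a2 (0.20, adjusted p = 0.0296, and 0.133 in the least favourable fit).

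The genes that restrain ERK signaling split. Of 18 feedback regulators measured, 5 were called lower, 3 of them stably, and 1 was stably higher. The shares over all probe sets were 1.21% lower and 1.32% higher, with 0.388% and 0.583% stable. Dusp5, which encodes a nuclear phosphatase for ERK, read 8.16, 8.14 and 8.08 in the DMSO arrays and 7.66, 7.70 and 7.74 in the arrays labelled RSL (-0.43, standard error 0.04, adjusted p = 2.16e-05). Dusp6, the cytoplasmic ERK phosphatase, read 9.99, 9.998 and 9.90 in the DMSO arrays and 9.67, 9.78 and 9.76 in the arrays labelled RSL (-0.23, standard error 0.04, adjusted p = 0.00295). Lrig1, which promotes the breakdown of EGF receptors, was lower by a similar amount (-0.27, standard error 0.05, adjusted p = 0.00515).

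Dusp1, in contrast, rose. It encodes a nuclear phosphatase that acts on p38 and JNK as well as ERK and is induced by stress, glucocorticoids and cAMP. Its values were 9.23, 9.27 and 9.18 in the DMSO arrays and 9.55, 9.71 and 9.60 in the arrays labelled RSL, a change of 0.40 (standard error 0.05, adjusted p = 0.000253). Errfi1, the EGF receptor inhibitor MIG6 (-0.23), and Dusp16, a JNK phosphatase (-0.22), were called lower but reached adjusted p of 0.051 and 0.0685 when the least favourable array was left out. Spry2 (-0.09) and Spry4 (0.02), inhibitors of RAS activation, were not called.

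Genes that ERK activity drives later were lower or did not pass. Of 21 measured, 5 were called lower, 4 stably, and none higher, with a median of -0.07. Beside this list and those that follow, 1.21% of all probe sets were called lower and 1.32% higher, 0.388% and 0.583% stably. Hmga2, which encodes a chromatin-bending protein of embryonic and transformed cells, read 10.83, 10.79 and 10.76 in the DMSO arrays and 10.49, 10.49 and 10.49 in the arrays labelled RSL (-0.30, standard error 0.03, adjusted p = 3.71e-05). Mmp3, a secreted protease of matrix and of other proteases, read 10.15, 10.27 and 10.23 in the DMSO arrays and 9.92, 9.97 and 9.97 in the arrays labelled RSL (-0.26, standard error 0.04, adjusted p = 0.00283). Hbegf, a ligand of the EGF receptor, was at -0.19 (standard error 0.04, adjusted p = 0.00666) and Fosl1 is counted here too. Plaur, the urokinase receptor, was at -0.21 (adjusted p = 0.0176) and lost its call without 1 array, at an adjusted p of up to 0.0889. Of 46 genes of mitosis and cytokinesis 2 were called lower, Prc1, a bundler of the central spindle, stably (-0.20, standard error 0.03, adjusted p = 0.00266) and Ccnb2, which encodes cyclin B2, not (-0.13, adjusted p = 0.0454, up to 0.193 without 1 array). In that list 13 of 46 lay above 0, against 8601 of all 16475, and the median was -0.03. Of 39 genes for G1/S and replication none changed stably, and Ccne2, the gene of cyclin E2 (0.29), and Cdt1, the origin licensing factor (-0.14), were called in opposite directions.

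**Figure D2:**
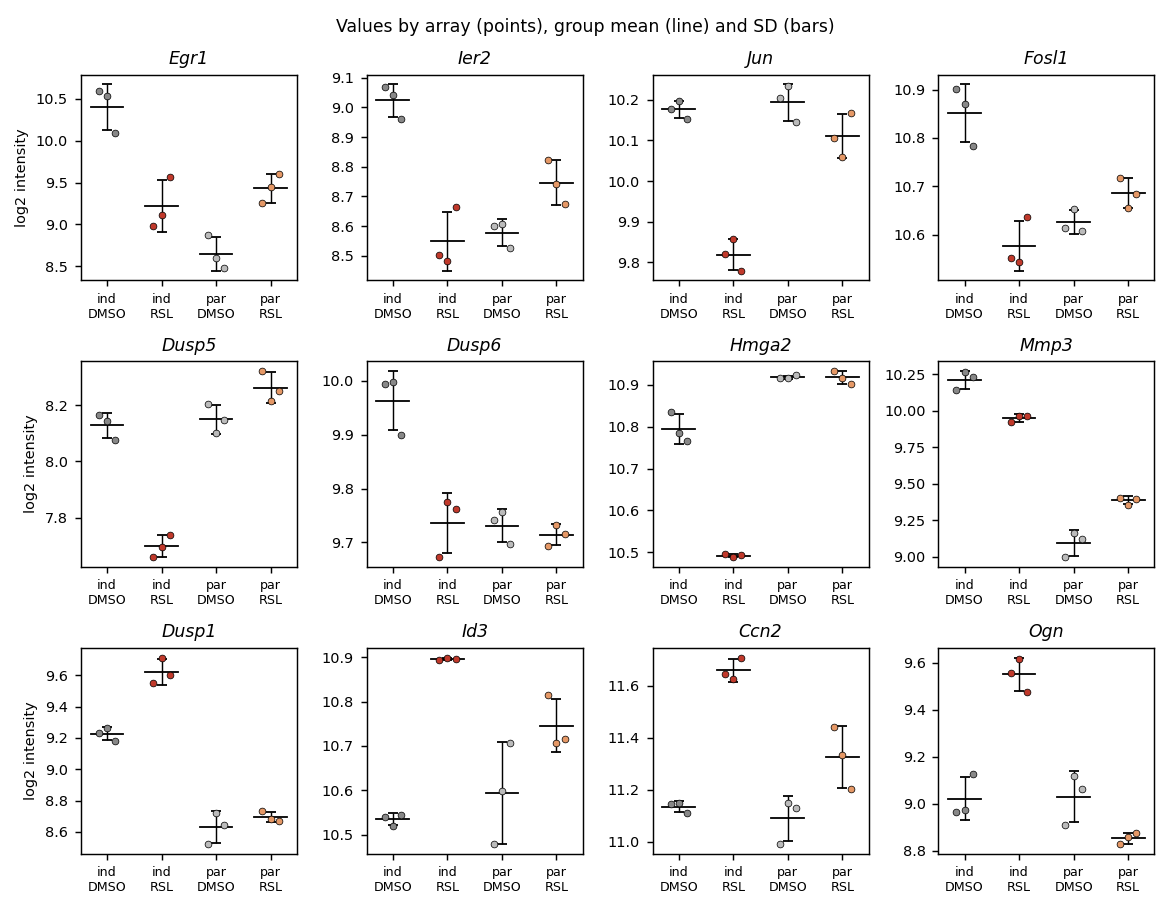
Log2 intensity of 12 genes in each of the 12 arrays (points), with the group mean (line) and SD (bars) for inducible (ind) and parental (par) cells given DMSO or RSL, n = 3 per group. Every axis has its own range and none starts at 0. In the inducible cells the first 8 genes are lower and the last 4 higher under RSL. The groups do not overlap, as in all 418 calls.

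Promoter sequence was compared with these changes as a description. RefSeq promoters (build GRCm38.p6) were on hand for 120 of the 153 named stable genes, 80 higher and 40 lower, and each window spans 300 bases, 50 of them after the start. The CArG box, the site of serum response factor, was found on either strand in 5.0% of the genes that fell, 1.2% of those that rose and 1.6% of all 12585 genes with a window. The 2 genes that fell and hold it are Dusp5 and Myadm, the latter a membrane protein gene that read 10.78, 10.71 and 10.69 in the DMSO arrays and 10.42, 10.41 and 10.39 in the arrays labelled RSL (-0.32, adjusted p = 7.19e-05). The AP-1 site TGACTCA was in 15% of those that fell, 7.5% of those that rose and 5.4% of all. The ETS core CCGGAA was in 10%, 12.5% and 24.8%. These shares rest on 40 and 80 genes, were not tested, and the absence of a match says only that the letters are not in the window.

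Shown first are the 250 bases before the start of Dusp5 and Myadm, which carry the CArG boxes, and of Dusp1, the ERK-linked phosphatase gene that rose and whose window holds a cAMP response element (TGACGTCA) and the E-box CACGTG. Capitals mark these matches, 2 adjoining boxes in Dusp5 and 1 at the RefSeq start of Myadm whose window holds it. The windows are chr19:53528895-53529144 (plus strand), chr7:3292778-3293027 (plus strand) and chr17:26508473-26508722 (minus strand).
Dusp5: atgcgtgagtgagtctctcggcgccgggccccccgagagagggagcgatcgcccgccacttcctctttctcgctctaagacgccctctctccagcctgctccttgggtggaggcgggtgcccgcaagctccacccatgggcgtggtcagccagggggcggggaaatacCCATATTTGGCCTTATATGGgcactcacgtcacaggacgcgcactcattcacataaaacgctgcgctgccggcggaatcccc
Myadm: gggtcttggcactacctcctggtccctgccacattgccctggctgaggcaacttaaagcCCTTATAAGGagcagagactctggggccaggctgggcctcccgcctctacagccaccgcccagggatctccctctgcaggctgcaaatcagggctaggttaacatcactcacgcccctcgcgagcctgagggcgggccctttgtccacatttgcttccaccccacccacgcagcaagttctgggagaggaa
Dusp1: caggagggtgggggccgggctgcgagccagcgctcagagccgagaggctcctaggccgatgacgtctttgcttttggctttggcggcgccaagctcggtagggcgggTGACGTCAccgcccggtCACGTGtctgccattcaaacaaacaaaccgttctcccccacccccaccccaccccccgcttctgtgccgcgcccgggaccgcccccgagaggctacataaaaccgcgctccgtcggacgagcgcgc
The cAMP response element was in 2 of the 80 genes that rose, Dusp1 and Zfand2b, in none of the 40 that fell, and in 3.1% of all.

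The stable falls included genes of adhesion and the cytoskeleton, although their lists gave calls in both directions. Of 46 cell adhesion molecules 2 were called lower, both stably (Cd44 and Itga6), and 2 higher, neither stably (Cd9 at 0.15 and Vcam1 at 0.15), with a median of 0.01. Over all probe sets 1.21% were called lower and 1.32% higher. Axl, a receptor kinase of motile mesenchymal cells, read 10.56, 10.60 and 10.50 in the DMSO arrays and 10.29, 10.24 and 10.25 in the arrays labelled RSL (-0.29, standard error 0.04, adjusted p = 0.000249). Cd44, the hyaluronan receptor, read 11.13, 11.12 and 11.05 in the DMSO arrays and 10.86, 10.88 and 10.81 in the arrays labelled RSL (-0.25, standard error 0.03, adjusted p = 0.000371). Itga6, the laminin-binding integrin alpha 6, fell by a like amount (-0.25, adjusted p = 0.00208). Among actin-associated genes, Flnc, a filamin that crosslinks actin, was at -0.30 (adjusted p = 0.000911), Tpm4, a tropomyosin of stress fibres, at -0.24 (0.00553), and Pxn, the focal adhesion scaffold paxillin, at -0.20 (0.00369). Fblim1, which links filamin to integrins (-0.20), and Septin9, a filament-forming GTPase (-0.24), fell as well. Of 27 genes of serum response factor and contraction 3 were called lower and 1 higher, against the same shares over all probe sets. Only Tpm4 among them was stable, and the median of the 27 was -0.03. Tpm1, the other tropomyosin called, was higher (0.18, adjusted p = 0.00799, and 0.0571 in the least favourable fit). A pair of semaphorins also parted, with the membrane-anchored Sema7a at -0.30 (adjusted p = 0.000355) and the secreted Sema3c at 0.21 (0.00641).

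**Figure D3:**
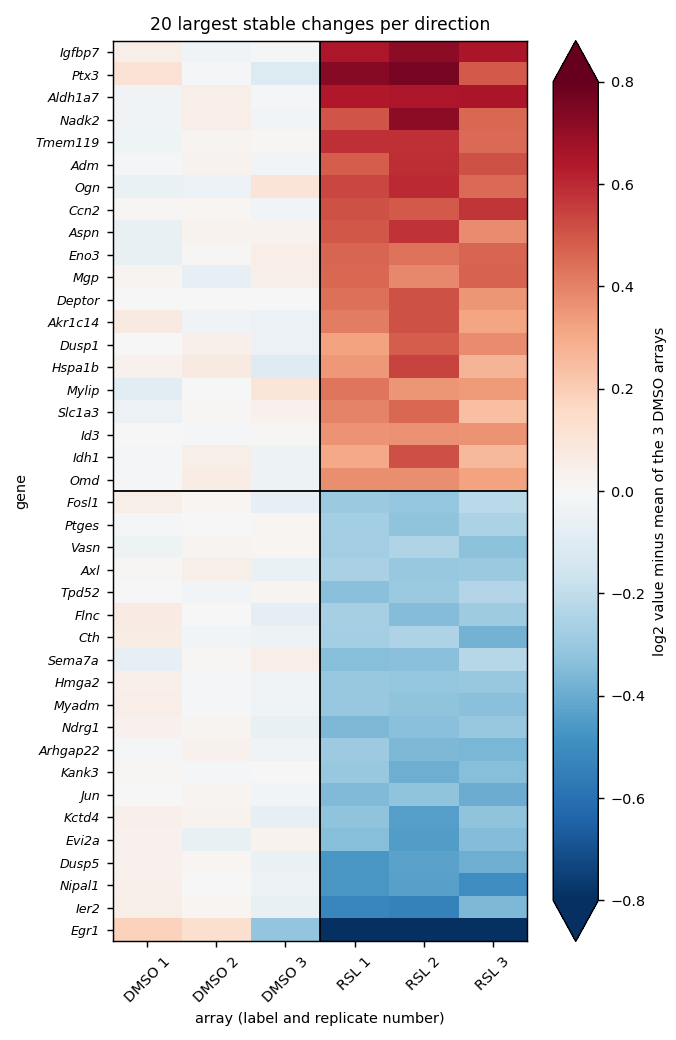
Heat map of the 20 largest stable changes in each direction (rows) in the 6 inducible arrays (columns), coloured by log2 value minus the mean of the 3 DMSO arrays. The scale stops at 0.8 in either direction, which Egr1 passes, and the colour changes between DMSO and RSL in every row.

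Igfbp7, a secreted protein that binds insulin-like growth factors and collagen, showed the largest stable increase, with 8.14, 8.07 and 8.08 in the DMSO arrays and 8.74, 8.81 and 8.75 in the arrays labelled RSL (0.67, standard error 0.05, adjusted p = 2.91e-06). Ptx3, a soluble pattern recognition protein that fibroblasts secrete, read 9.14, 9.01 and 8.91 in the DMSO arrays and 9.75, 9.78 and 9.51 in the arrays labelled RSL (0.66, standard error 0.07, adjusted p = 3.71e-05). In both genes the groups were at least 0.3 log2 units apart. Ccn2, or connective tissue growth factor, read 11.15, 11.15 and 11.11 in the DMSO arrays and 11.65, 11.62 and 11.71 in the arrays labelled RSL (0.52, standard error 0.05, adjusted p = 3.71e-05). Mgp, the inhibitor of matrix calcification, read 6.60, 6.50 and 6.62 in the DMSO arrays and 7.03, 6.95 and 7.05 in the arrays labelled RSL (0.44, standard error 0.04, adjusted p = 3.71e-05). Adm, the vasodilator peptide adrenomedullin, was at 0.53 (standard error 0.09, adjusted p = 0.00403) and Tmem119, a membrane protein of osteoblasts and microglia, at 0.54 (standard error 0.05, adjusted p = 1.98e-05).

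The small leucine-rich proteoglycans, which coat collagen fibrils and set their width, gave 3 stable increases among 15 measured. Of all probe sets 0.583% rose stably. Ogn (osteoglycin) read 8.97, 8.97 and 9.13 in the DMSO arrays and 9.56, 9.62 and 9.48 in the arrays labelled RSL (0.53, standard error 0.05, adjusted p = 3.71e-05). Aspn (asporin) read 5.80, 5.90 and 5.90 in the DMSO arrays and 6.36, 6.44 and 6.24 in the arrays labelled RSL (0.48, standard error 0.05, adjusted p = 3.71e-05). Omd (osteomodulin) read 7.08, 7.15 and 7.05 in the DMSO arrays and 7.47, 7.47 and 7.41 in the arrays labelled RSL (0.36, standard error 0.04, adjusted p = 8.52e-05). All arrays labelled RSL exceeded all DMSO arrays in each gene, as in every probe set called higher and in 9.34% of all. Aspn lay low on the array, below the first quartile of 6.26 in the DMSO arrays.

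These 3 genes are consecutive on chromosome 13, in the order Aspn, Omd, Ogn, and the stretch lies within the larger gene Cenpp. The other genes there were not called: Ecm2, the leucine-rich repeat gene beside Aspn, was at 0.05 and lay near the floor of the array, Cenpp at 0.04 and Nol8 at 0.04. Decorin (Dcn), the most studied member of the family, was at -0.06 and lumican (Lum) at 0.02, neither called, so the median of the 15 was 0.01. Chromosome 13 held 8 stable increases and 0 stable falls among 566 probe sets, the other 5 being Akr1c14, Emb, Foxc1, Id4 and Mylip. The position was noticed after the values were seen.

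Shown for comparison, since they rose together, are the 250 bases before the starts of the neighbours, at chr13:49544193-49544442 (plus strand), chr13:49582212-49582461 (plus strand) and chr13:49607765-49608014 (plus strand). Capitals mark the NFY box CCAAT, found in Aspn, and the TEAD site GGAATG, found in Ogn, each on either strand.
Aspn: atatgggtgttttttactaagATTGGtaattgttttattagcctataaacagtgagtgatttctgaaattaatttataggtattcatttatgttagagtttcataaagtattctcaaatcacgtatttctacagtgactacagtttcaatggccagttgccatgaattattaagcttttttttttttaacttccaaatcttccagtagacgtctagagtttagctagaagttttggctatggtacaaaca
Omd: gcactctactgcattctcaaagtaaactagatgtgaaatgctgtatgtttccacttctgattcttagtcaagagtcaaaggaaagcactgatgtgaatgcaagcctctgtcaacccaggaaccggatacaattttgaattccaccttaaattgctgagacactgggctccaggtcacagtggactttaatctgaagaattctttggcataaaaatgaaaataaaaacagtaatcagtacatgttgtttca
Ogn: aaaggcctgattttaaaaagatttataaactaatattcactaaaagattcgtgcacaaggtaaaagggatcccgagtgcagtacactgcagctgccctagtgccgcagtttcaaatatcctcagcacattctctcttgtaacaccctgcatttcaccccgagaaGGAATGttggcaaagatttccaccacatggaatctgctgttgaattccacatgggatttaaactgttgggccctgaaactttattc
Both motifs are common: CCAAT was in 47.5% of those that rose, 50% of those that fell and 42.2% of all, and GGAATG in 16.2%, 22.5% and 15.3%.

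Structural matrix genes gave calls in some lists and none in others. Over all probe sets 1.32% were called higher and 1.21% lower. Among 20 fibrillar and other collagens, Col11a1, a minor fibril collagen, was stably higher (0.18, adjusted p = 0.00569) at a level among the dimmest 25% of probe sets, while Col27a1 (0.14) and Col6a3 (-0.24) were called but not stable, with adjusted p of up to 0.17 and 0.0575. None of 20 genes of collagen processing and none of 22 of basement membrane was called. Of the proteases, Adamts1 (0.28, standard error 0.05, adjusted p = 0.00704) and Adamts5 (0.30, standard error 0.04, adjusted p = 0.000704), which cleave aggrecan and versican, were higher. They are next to each other on chromosome 16. Mmp3 and Htra1, a secreted serine protease (-0.16, adjusted p = 0.00947), were lower. Of microfibril genes Ltbp2, which binds fibrillin, was higher (0.20, adjusted p = 0.00289), and Ltbp1, which tethers latent TGF-beta, was called lower but not stably (-0.20, adjusted p = 0.021, up to 0.117 without 1 array).

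The Id genes, which encode inhibitors of basic helix-loop-helix factors and are classic targets of BMP signaling, gave 3 stable increases among 4 members. Among all probe sets 1.32% were called higher, 0.583% stably, and 1.21% lower. Id3 read 10.54, 10.52 and 10.54 in the DMSO arrays and 10.89, 10.90 and 10.90 in the arrays labelled RSL (0.36, standard error 0.05, adjusted p = 0.000355). Id2 read 8.41, 8.30 and 8.29 in the DMSO arrays and 8.67, 8.76 and 8.59 in the arrays labelled RSL (0.34, standard error 0.05, adjusted p = 0.00228). Id4 read 9.27, 9.28 and 9.36 in the DMSO arrays and 9.63, 9.64 and 9.58 in the arrays labelled RSL (0.32, standard error 0.04, adjusted p = 0.000198), and Id1, the brightest of the 4, was at 0.05 and not called. The list of 38 BMP and TGF-beta genes that holds them had 1 further call in each direction and a median of 0.01. Smad7, an inhibitory SMAD, fell (-0.23, standard error 0.04, adjusted p = 0.00378), and Smad6, the other one, was called higher but not stably (0.18, adjusted p = 0.0196, up to 0.104 without 1 array). A pair of related forkhead genes also parted. Foxc1 was higher (0.27, adjusted p = 0.00112) and Foxc2 lower (-0.26, adjusted p = 0.00401), and the other 35 forkhead genes were not called.

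Among metabolic lists, the 16 genes of cholesterol biosynthesis and uptake held 6 calls, all higher and 3 of them stable. Their median was 0.125, and 15 members lay above 0. Of all probe sets 1.32% were called higher, 0.583% stably. Single genes of other lists changed as well. Aldh1a7, an aldehyde dehydrogenase, read 8.53, 8.61 and 8.55 in the DMSO arrays and 9.20, 9.21 and 9.22 in the arrays labelled RSL (0.64, standard error 0.05, adjusted p = 9.05e-06). Its close relative Aldh1a1, the retinal-oxidizing enzyme, was at 0.14 and not called (adjusted p = 0.166), and no source used here gives how far the probes of these similar genes cross-react. Nadk2, the mitochondrial kinase that makes NADP, read 8.62, 8.70 and 8.63 in the DMSO arrays and 9.15, 9.37 and 9.11 in the arrays labelled RSL (0.56, standard error 0.06, adjusted p = 3.71e-05), with RSL replicate 2 the highest. The cytosolic kinase Nadk was at -0.06, and Nadk2 was the 1 call among 27 genes of NAD metabolism.

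Eno3, the muscle form of enolase, read 8.66, 8.73 and 8.77 in the DMSO arrays and 9.18, 9.15 and 9.19 in the arrays labelled RSL (0.46, standard error 0.04, adjusted p = 3.34e-05) and was the 1 stable call of 20 glycolytic genes. Idh1, the cytosolic isocitrate dehydrogenase that supplies NADPH, was at 0.36 (standard error 0.06, adjusted p = 0.00319), and its mitochondrial counterpart Idh2 at -0.03, not called. Slc1a3, the glutamate and aspartate transporter, read 8.20, 8.26 and 8.28 in the DMSO arrays and 8.65, 8.71 and 8.49 in the arrays labelled RSL (0.37, standard error 0.05, adjusted p = 0.00139). It and Nadk2 lie close together on chromosome 15, with Ranbp3l between them. Of 325 solute carriers, Slc1a3, Slc12a2, the sodium, potassium and chloride cotransporter (0.23), and Slc25a45, a mitochondrial carrier (0.25), were the stable calls, and 4 others were called lower but not stably. A stable share of this size is near that over all probe sets, 0.583% higher and 0.388% lower. Cth, which makes cysteine from cystathionine, was lower (-0.30, standard error 0.05, adjusted p = 0.00424), as was Nipal1, a magnesium transporter, with 8.06, 8.03 and 7.98 in the DMSO arrays and 7.56, 7.59 and 7.53 in the arrays labelled RSL (-0.47, standard error 0.04, adjusted p = 4.8e-06).

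Deptor, which binds and inhibits mTOR, read 8.41, 8.42 and 8.41 in the DMSO arrays and 8.85, 8.92 and 8.76 in the arrays labelled RSL (0.43, standard error 0.04, adjusted p = 1.98e-05). Of 28 mTOR genes it was the 1 stable call. Sesn1 (0.24) and Ddit4 (0.20), 2 stress-induced inhibitors of the pathway, were called but not stable, as was Eif4ebp1 (-0.16), the translation repressor under mTOR. Their adjusted p went up to 0.139, 0.11 and 0.0559. For this list and those below, 1.32% of all probe sets were called higher and 1.21% lower, 0.583% and 0.388% stably. Tob1, an antiproliferative protein that promotes mRNA deadenylation (0.23, adjusted p = 0.00319), and Pdcd4, an inhibitor of translation initiation (0.27, adjusted p = 0.00234), were higher, and Nuak1, a kinase related to AMPK, read 7.95, 8.03 and 8.04 in the DMSO arrays and 8.30, 8.34 and 8.36 in the arrays labelled RSL (0.32, adjusted p = 4.64e-05). Mcl1, an antiapoptotic member of the BCL2 family, was lower (-0.21, adjusted p = 0.00213). Of 22 cell cycle inhibitors and senescence-linked chromatin genes 1 was called higher, Tob1, and 2 lower, Hmga2 and Lmna, which encodes the A-type lamins (-0.19, adjusted p = 0.00776, up to 0.0515 without 1 array), with a median of 0.02. Cdkn2a, which encodes the cell cycle inhibitors INK4A and ARF, was at -0.04 and was not called. Whether these cells keep that gene intact was not checked, so a lack of response cannot be read from its probe set. Lmnb1, the lamin lost in senescent cells, was at 0.05 and Glb1, the lysosomal beta-galactosidase, at 0.05, neither called. Among 47 lysosome genes 33 were above 0, against 8601 of all 16475, and Gla, the alpha-galactosidase, was the 1 call (0.16, adjusted p = 0.0376, up to 0.142). That 1 call is near the share over all probe sets.

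**Figure D4:**
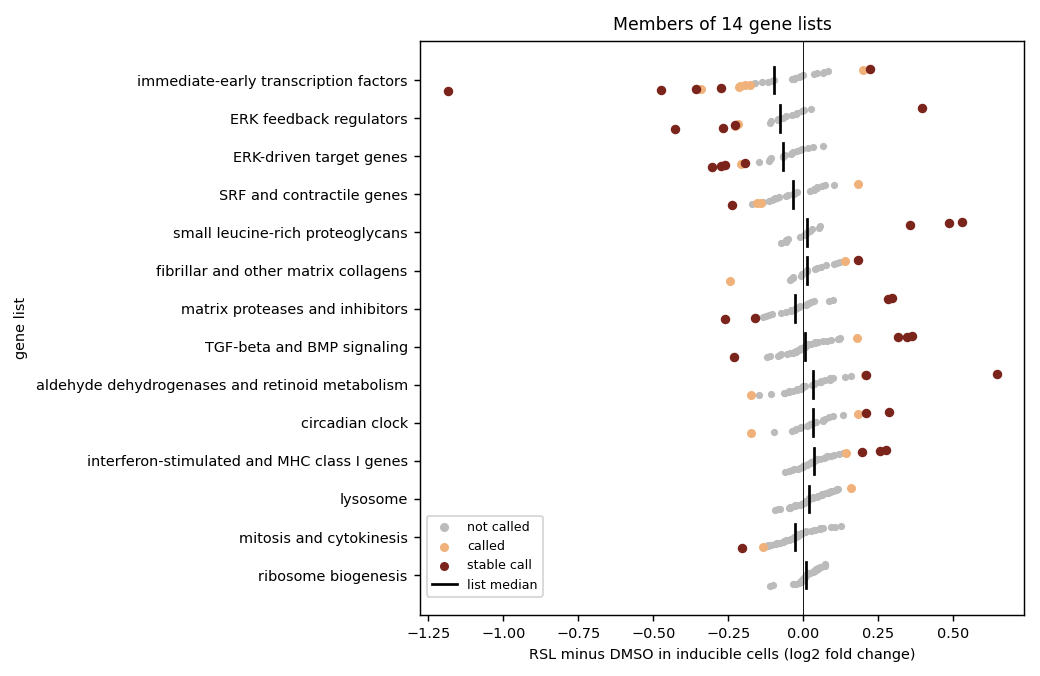
Log2 fold changes, RSL minus DMSO in inducible cells (horizontal axis), of every measured member of 14 gene lists (rows). Gray points were not called, orange points were called but not stable, dark red points were stable calls, and the black bar is the list median. The first 3 lists lie mostly to the left of 0. The small leucine-rich proteoglycans consist of 3 points far to the right and a cluster at 0, and ribosome biogenesis has no call.

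Of 21 clock genes 3 were called higher, 2 of them stably, and 1 lower, with a median of 0.03. Beside this list and the next, 1.32% of all probe sets were called higher, 0.583% stably, and 1.21% lower. Nr1d2, which encodes the repressor REV-ERB beta, read 7.89, 7.86 and 7.90 in the DMSO arrays and 8.16, 8.15 and 8.18 in the arrays labelled RSL (0.28, standard error 0.03, adjusted p = 0.000111) and Dbp, an output activator, read 6.71, 6.66 and 6.76 in the DMSO arrays and 6.90, 6.93 and 6.93 in the arrays labelled RSL (0.21, standard error 0.04, adjusted p = 0.00451). Tef, a relative of Dbp, was higher (0.18) and Arntl, the activator BMAL1, lower (-0.17), both called but not stable, at adjusted p of up to 0.0959 and 0.0685, and Per2 (0.07) and Per3 (0.04) were not called. All arrays carry the same 24 h label, and no source used here gives the hour of harvest. Among 29 interferon and antigen presentation genes 4 were called, all higher, 3 stably: Tapbp, the peptide-loading factor tapasin (0.28, adjusted p = 0.000249), Gbp2 (0.26, adjusted p = 0.00284) and Irgm1 (0.20, adjusted p = 0.00365), both interferon-induced GTPases. The median of the 29 was 0.04, and Ifngr2, a chain of the interferon gamma receptor, was lower (-0.22, adjusted p = 0.00213).

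Parental cells gave a separate reading of RSL without the plasmids. In them 5 probe sets (0.0303%) were called: Ccn1 (0.60), Mmp3 (0.29), Klf10 (0.25) and Zfand2b (0.24) higher and Hnrnph3 (-0.20) lower, at adjusted p between 0.00944 and 0.0421, and the count was unsteady. It was 3 without inducible DMSO replicate 1 or 3 or inducible RSL replicate 1, 8 and 12 without inducible RSL replicates 2 and 3, 2 without parental DMSO replicate 2 or 3 or parental RSL replicate 1, and 1 without parental RSL replicate 2 or 3. For the 96 genes that rose stably in the inducible clone the median parental change was 0.01, and for the 64 that fell it was -0.02, with the same sign in 52 and 42 of them. The difference of both effects, tested in the same fit, was called for 109 probe sets (0.662%), among them 76 of the 160. Without 1 array that count was 56 (inducible DMSO replicate 1 or 2), 72 and 58 (inducible RSL replicates 1 and 2), 60 and 70 (parental DMSO replicates 2 and 3) or 71 (parental RSL replicate 1). The difference held in every fit that leaves out 1 of the 12 arrays for 42 of the 160, 29 higher and 13 lower.

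The largest difference was that of Egr1. In parental cells its values were 8.87, 8.60 and 8.47 with DMSO and 9.25, 9.45 and 9.60 with RSL (0.78, adjusted p = 0.087, not called), and the effects of both lines differed by -1.97 (adjusted p = 0.000262). Its level under DMSO was higher in the inducible clone than in any parental array, and the arrays labelled RSL of the clone lay within the parental range. Mmp3 rose in parental cells, from 8.996, 9.16 and 9.12 with DMSO to 9.41, 9.36 and 9.40 with RSL, and its effects differed by -0.56 (adjusted p = 0.000262). Ier2 (-0.64), Dusp5 (-0.54), Fosl1 (-0.33) and Hbegf (-0.29) differed in the same direction with parental values above 0, at adjusted p between 0.000262 and 0.0108. Ccn1, an immediate-early matricellular gene, was not called in the clone (-0.09) and differed by -0.69 (adjusted p = 0.00488). Among the increases, Ogn (0.70), Aldh1a7 (0.65), Nadk2 (0.63), Ptx3 (0.57), Akr1c14, an aldo-keto reductase gene (0.53), and Deptor (0.51) had the largest differences, with parental effects between -0.18 and 0.09. For Ccn2 (0.24 in parental cells), Adm (0.28), Ostf1 (0.23) and Zfand2b the difference was not called, which does not show that the effects were alike. Zfand2b, a proteasome-associated zinc finger gene, was called in both lines, at 0.25 and 0.24.

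**Figure D5:**
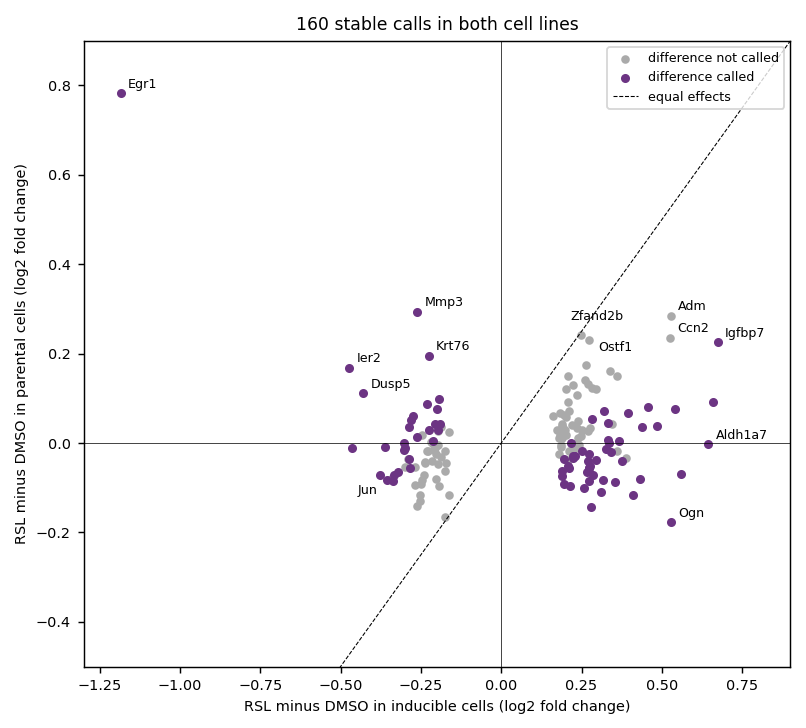
The 160 stable calls of the inducible clone, with their log2 fold change there on the horizontal axis and in parental cells on the vertical axis. Purple points are the 76 whose effects differed by the test, gray points those for which the difference was not called, and the dashed line marks equal effects. Egr1 stands alone at -1.18 and 0.78, and the other points spread around 0 on the vertical axis.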

How the data were processed

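RNA of the 12 samples was hybridized to Affymetrix mouse arrays (Mm430_2.0), 3 per cell line and agent, and groups were taken from the labels. The authors deposited log2 values, 1 per array and probe set. Probes had been grouped by Entrez gene with Custom CDF version 10, then background-corrected by RMA and quantile-normalized, and the submitters' processing notes name RMA. The log base was taken from the values, and no source used here gives how the probes of a gene were combined. Labels and methods name different RNA extraction reagents. All 12 columns belong to the series, and 0 columns of other samples were present. Of 16475 probe sets tested without a filter, 15780 have 1 gene symbol and 695 none, and the latter were counted but not named. Array medians lay between 7.03 and 7.06, and the lowest correlation between inducible arrays was 0.99787.

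From the deposited values a linear model of 4 group means was fitted to all arrays in limma 3.58.1 (R 4.3.3), without a block, with moderated variances and Benjamini-Hochberg adjustment over all probe sets. The standard error of a log2 fold change had a median of 0.040. All adjusted p-values are limma's. On simulated data for the RSL effect in inducible cells (16475 probe sets), 7 of 186 calls were false. The simulated noise was independent between arrays, whereas deviations of the inducible DMSO and RSL arrays correlated at -0.33 to 0.32. The simulated rates may therefore not hold for these arrays. The genes and the 47 gene lists and 39 symbol families were chosen with earlier results of these data known. Genes were named from the 30 largest stable changes per direction, up to 4 members of each list by smallest p, the 10 smallest p for the difference and Ier2. Other called list members, neighbours, relatives and well-known members that were not called were named after their values were seen. Some genes and a gene group are not reported here. Alternatives were a replicate block, the 6 arrays alone, a filter on the dimmest 40%, an intensity trend, array weights, median subtraction, repeated quantile normalization, the methods' one-way analysis, an adjusted p under 0.01 and leaving out each array.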

Additional observations from a re-analysis of the deposited data

Results flagged for a closer look

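These genes stand out because the RSL effect in the inducible clone differed from that in parental cells by the test of the difference itself in limma, which called 109 probe sets (0.662%). Values are the inducible minus the parental effect on the log2 scale. Of the genes named here 68 were called, 40 of them also in each of the 12 fits that leave out 1 array.

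Among those 40, immediate-early and ERK-linked genes were lower in the clone by comparison: Egr1 (-1.97), Ccn1 (-0.69), Ier2 (-0.64), Dusp5 (-0.54), Egr2 (-0.53), Errfi1 (-0.44), Klf10 (-0.35), Fosl1 (-0.33), Hmga2 (-0.30) and Hbegf (-0.29). The protease gene Mmp3 (-0.56), the magnesium transporter gene Nipal1 (-0.45) and the prostaglandin synthase gene Ptges (-0.33) went the same way. Matrix, secreted and membrane protein genes were higher by comparison, with Ogn at 0.70, Ptx3 at 0.57, Tmem119 at 0.46 and Igfbp7 and Aspn at 0.45. Omd was at 0.44, Adamts1 at 0.42, Mgp at 0.40 and Adamts5 at 0.33. Aspn read 5.62 to 5.75 in the parental arrays, below the first quartile of 6.26 of the inducible arrays. A parental change could be missed at that level. Enzyme genes followed with Aldh1a7 at 0.65, Nadk2 at 0.63, Akr1c14 at 0.53, Inmt at 0.42 and Eno3 at 0.37, and so did the growth regulators Deptor at 0.51 and Nuak1 at 0.34. The transcription regulators Id4 (0.40), Nr1d2 (0.36) and Foxc1 (0.33) and the interferon-linked genes Gbp2 (0.36), Tapbp (0.33) and Irgm1 (0.29) were higher too. Mylip, a ubiquitin ligase of the LDL receptor, was at 0.42, Mt1 at 0.36, and Tpm1 and Emb, the membrane protein embigin, at 0.29 each, and the adhesion molecule gene Vcam1 at 0.26.

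In the other 28 the call ended without at least 1 array, at adjusted p of 0.0509 to 0.148 in the least favourable fit. These were Kctd4 (-0.35), Ier5 (-0.33), Evi2a (-0.31), Plaur (-0.30), Sema7a (-0.29), Flnc (-0.29), Zfp36 (-0.28), Kcnn4 (-0.28), Jun (-0.27), Ndrg1 (-0.26), Myadm (-0.26), Axl (-0.25), Arntl (-0.24), Vasn (-0.23), Pxn (-0.22) and Mcl1 (-0.22) on the lower side. On the higher side they were Sesn1 (0.37), Dhcr7 (0.36), Slc1a3 (0.36), Ddit4 (0.34), Il6 (0.33) and Ccl8 (0.33). Dusp1 (0.33), Pdcd4 (0.33), Dbp (0.27), Slc12a2 (0.26), Tlcd1 (0.25) and Lgals3bp (0.23) were on that side too. Il6 was dim in the parental arrays, at 5.79 to 5.94, so a change there could be missed.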

How the results depend on the processing

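With array weights 736 probe sets were called in inducible cells (386 higher, 350 lower), 375 in the difference and 106 in parental cells. At an adjusted p under 0.01 the counts were 190 (106 and 84), 38 and 1. Run on the 6 inducible arrays, the methods' one-way analysis gave 1913 at a nominal p under 0.05 (972 and 941) and 1 after Benjamini-Hochberg (1 and 0), which was Id3. Without any 1 array the inducible count was 204 to 457 (121 to 236 higher, 79 to 221 lower), the difference count 56 to 144 and the parental count 1 to 12. An intensity trend gave 10 and repeated quantile normalization 8 calls in parental cells. Stable calls numbered 95 in the 6 arrays alone, 92 of them among the 160. The other counts stayed within 1.5 times.

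Whether replicate numbers pair the arrays cannot be told from 3 arrays per group. Deviations of same-numbered inducible arrays correlated at 0.07, -0.01 and 0.21, and those of other-numbered ones at -0.33 to 0.32. With the number as a replicate block in each cell line, 289 probe sets were called in inducible cells, 59 in the difference, 0 in parental cells, and 45 calls were stable. In the block of the 6 inducible arrays alone 361 were called and 137 were stable. No named gene changed its direction under these alternatives. The causes were not tested. Arrays give no molecule counts, 3 per group limit the precision, and stable calls were rare among dim probe sets. In parental cells 1599 probe sets had an unadjusted p under 0.05.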

Other observations

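Several stable increases lay outside the gene groups described above. Among all probe sets 0.583% rose stably. Hspa1b, the inducible chaperone HSP70, read 9.05, 9.09 and 8.91 in the DMSO arrays and 9.36, 9.56 and 9.29 in the arrays labelled RSL (0.39, standard error 0.07, adjusted p = 0.0056 from limma), and of 27 heat shock genes it was the only stable call. The near-identical Hspa1a has its own probe set, at -0.01 and not called, and no source used here gives how the probes separate the copies. Mt1, a metal-binding metallothionein, read 10.74, 10.70 and 10.68 in the DMSO arrays and 10.95, 10.999 and 10.998 in the arrays labelled RSL (0.27, adjusted p = 0.00232). Mgst1, a membrane-bound glutathione transferase, was at 0.34 (adjusted p = 0.00151) and was the only stable call among 45 antioxidant and NRF2 target genes. Inmt, which methylates indole amines (0.31, adjusted p = 0.0001), Lgals3bp, a secreted galectin-binding glycoprotein (0.28, adjusted p = 6.57e-05), and Angpt1, the ligand of the TIE2 receptor (0.28, adjusted p = 0.00382), rose as well. Dhcr7, the last enzyme of cholesterol synthesis (0.34), was also among the 30 largest and belongs to the cholesterol list above. The remaining ones were the cytokine gene Il6 (0.33), the chemokine gene Ccl8 (0.33) and Tlcd1 (0.32).

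Among the falls, Ptges, the inducible prostaglandin E synthase, read 8.13, 8.15 and 8.17 in the DMSO arrays and 7.88, 7.83 and 7.90 in the arrays labelled RSL (-0.28, adjusted p = 7.76e-05). Ndrg1, a gene of the hypoxia and iron response, read 8.83, 8.82 and 8.74 in the DMSO arrays and 8.44, 8.46 and 8.49 in the arrays labelled RSL (-0.33, adjusted p = 0.000106), whereas Adm of the same list of 22 hypoxia genes rose. Kcnn4, a calcium-activated potassium channel (-0.26, adjusted p = 0.00109), and Kitl, the ligand of the KIT receptor (-0.19, adjusted p = 0.00582), were lower. Others among the 30 largest stable falls were Evi2a (-0.38), Kctd4 (-0.36), Kank3 (-0.34), Tpd52 (-0.29), Vasn, which encodes a membrane protein that binds TGF-beta (-0.28), Akap2, a kinase anchoring protein gene (-0.27), Angptl4, an inhibitor of lipoprotein lipase (-0.25), and Ccbe1 (-0.25). Calls were 0 in 32 genes of ribosome biogenesis, 22 of the tRNA synthetases and 73 mitochondrial ribosomal proteins. They were also 0 in 76 subunits of the respiratory chain and ATP synthase, 33 Hox genes and 66 olfactory and vomeronasal receptors. Over all probe sets 1.32% were called higher and 1.21% lower, and whether these groups fall short of that was not tested. On simulated data for the same comparison, the fit recovered 92% of changes of 0.3 and 70% of changes of 0.2. That noise was independent between arrays, unlike the deviations of the measured arrays, so recovery there may differ.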
